A study of Mus musculus with 3 samples.

Results

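The region between Acadl and Cps1 on mouse chromosome 1 was examined for binding of HNF4A and FOXA2 in fetal liver progenitors. Chromatin immunoprecipitation with sequencing had been done on hepatoblasts, which give rise to hepatocytes and bile duct cells. They were taken from pooled wild-type C57BL/6 livers at embryonic day 14.5 and enriched on magnets for the surface protein DLK1. There was 1 library with an HNF4A antibody, 1 with a FOXA2 antibody and 1 of input chromatin without antibody, so no value below has a replicate and none was tested. The window runs from 66850000 to 67300000 of chromosome 1 (mm9, 450 kb). It was selected on the genes it holds and on the authors' score, because the highest FOXA2 peak of the whole list lies in it. It holds 8 of the 11703 HNF4A peaks, 7 of the 9338 FOXA2 peaks and 0 of the 1263 input regions. The score is a whole number of unstated definition and is read only within its own list. Depth is unknown, and each list ends at a lowest score (16 for HNF4A, 11 for FOXA2), so a site without a peak may still be bound.

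HNF4A, a nuclear receptor, maintains the gene expression of hepatocytes. FOXA2, of the forkhead family, is able to bind its sites in compacted chromatin. Both act mainly through enhancers that can lie far from the gene they control. Acadl encodes long-chain acyl-CoA dehydrogenase, which carries out the opening step of fatty acid oxidation in mitochondria. Cps1 encodes carbamoyl-phosphate synthetase, the mitochondrial enzyme that commits ammonia to the urea cycle and one of the most abundant proteins of the adult liver. In the rat, Cps1 is known to have an upstream enhancer that responds to glucocorticoid hormone. Binding, not expression, was measured here, and a peak near a gene does not show which gene it acts on.

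The genes point away from each other. Acadl lies at about 66877400 to 66909800 on the minus strand and Cps1 at about 67169600 to 67277800 on the plus strand, so their starts face each other across about 259.8 kb. In the RefSeq annotation of the later build GRCm38 this distance is 259.1 kb. The difference of 0.7 kb does not bound the error of either start, since shifts of both starts can cancel or add. Distances to gene starts below are therefore approximate, with an error that is not known. The same annotation places 2 other protein-coding genes in between, Myl1, a myosin light chain of fast skeletal muscle, and Lancl1, a glutathione-binding protein. Kansl1l and Erbb4 are the protein-coding neighbours outside the pair. Whether a peak falls within Myl1 or Lancl1, or in an exon or intron of any gene, was not determined, since no mm9 annotation was used.

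Peaks occupied the space between the gene starts and left the gene bodies nearly free. All 15 peaks lay within 262 kb, and the centres of 13 of them fell between the starts. By the approximate gene bounds, the other 2 were HNF4A peaks just inside the beginning of each gene. Their near edges lay about 214 bp inside Acadl and about 728 bp inside Cps1, so a shift of a start could change this. Overlapping peaks counted as 1 give 12 sites, of which 3 were bound by both factors. No peak of either factor was listed in the remaining 31.4 kb of Acadl or in the remaining 107 kb of Cps1. Sites formed a group on each side, with 6 sites nearer Acadl and 6 nearer Cps1, separated by 136 kb without a peak.

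**Figure D1:**
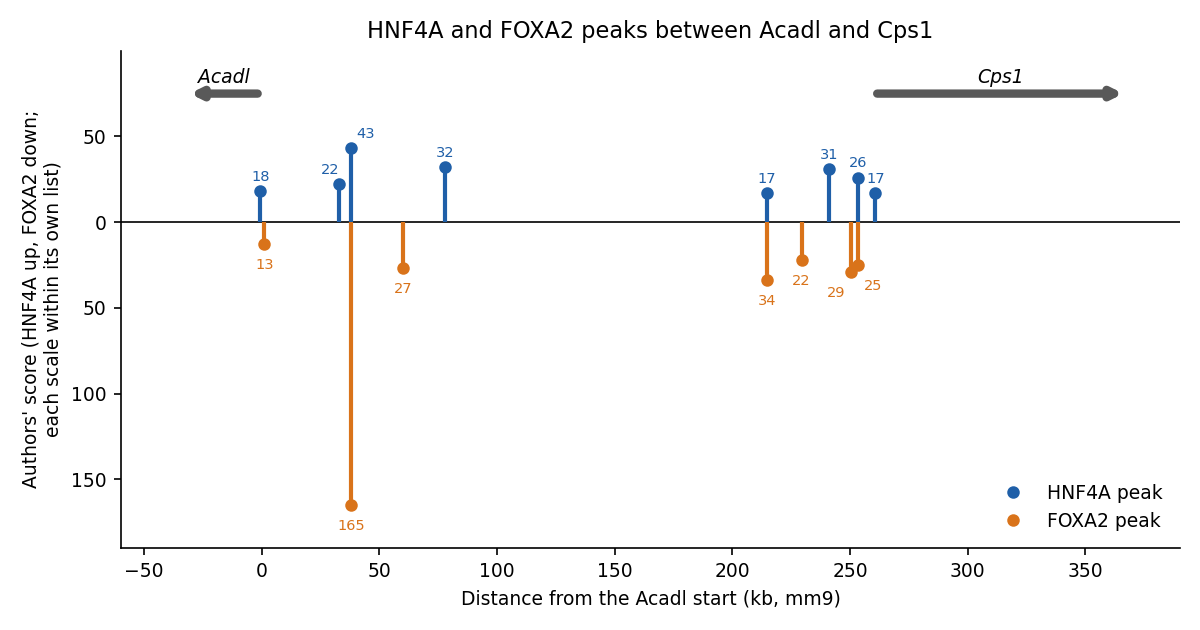
Authors' score of each peak (vertical axis, HNF4A upwards and FOXA2 downwards, each on the scale of its own list) against distance from the Acadl start in kb, with arrows for the genes. The 15 peaks fall into a group by each gene start, with 1 HNF4A peak of each group just inside the gene by the approximate bounds. The FOXA2 peak of score 165 stands far above the other 6 FOXA2 peaks, at 13 to 34.

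Beyond the window, HNF4A peaks were far away on both sides and FOXA2 peaks on the right. Outside the window the nearest HNF4A peaks lay 511 kb before its leftmost peak (chr1:66397960-66398277, score 33) and 857 kb after its rightmost one (chr1:68028081-68028494, score 25). The nearest FOXA2 peak on the left was closer to the Acadl group than the Cps1 group was, at 116 kb (chr1:66792066-66792382), and had a score of 12, against a list minimum of 11. On the right it was 1380 kb away (chr1:68549245-68549613, score 13). The closest input region lay 825 kb from the nearest member.

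The strongest site stood before Acadl. The FOXA2 peak at chr1:66947560-66947912 had a score of 165, rank 1 of 9338, and lay about 37.9 kb upstream of the Acadl start and 221.9 kb upstream of the Cps1 start. This is the value on which the window was chosen. The next FOXA2 scores of the list were 149 and 143. An HNF4A peak at chr1:66947539-66947891 covered nearly the same bases, with 332 bp in common (94.1% of the shorter peak) and centres 21 bp apart. Its score was 43, rank 1488 of 11703, and 13.5% of HNF4A peaks scored as high or higher. The site was thus the highest of its list for FOXA2 and below the 90th percentile for HNF4A, which is a score of 47.

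Such a partner was more frequent among the strongest FOXA2 sites than in the whole list. The 93 highest FOXA2 peaks (the top 1%) went down to a score of 67. Of the 6 peaks tied at that score, only the first by chromosome and position were taken. Among the 93 peaks, 72 overlapped an HNF4A peak (77.4%), against 30.7% of all FOXA2 peaks. The median score of these HNF4A partners was 35.5, with quartiles at 24.75 and 54. In 29 of these 72 the HNF4A score was 43 or higher, the site before Acadl included. The 10 highest FOXA2 peaks had between 0 and 9 HNF4A peaks within 50 kb. The site before Acadl had 4, its own partner included, and 2 further FOXA2 peaks. No test was made of these counts.

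The other peaks before Acadl were HNF4A or FOXA2 alone. At chr1:66942016-66942991, about 32.7 kb upstream, an HNF4A peak 976 bp wide had a score of 22 (rank 6143). It ended 4568 bp short of the highest FOXA2 peak. Farther out, FOXA2 alone was listed at chr1:66969542-66969951, about 59.9 kb upstream, with a score of 27 (rank 1461). HNF4A alone was listed at chr1:66987480-66987886, about 77.9 kb upstream, with a score of 32 (rank 2994). These outer peaks are the last before the long stretch without peaks, and 17528 bp lay between them.

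Weak peaks of both factors lay beside the Acadl start itself. The HNF4A peak at chr1:66908841-66909586 (score 18, rank 8703) lay from about 214 to 959 bp inside the gene. The FOXA2 peak at chr1:66910650-66911019 (score 13, rank 5752) lay from about 850 to 1219 bp upstream. They did not overlap and were 1063 bp apart. In their lists 81.6% of HNF4A peaks and 70.6% of FOXA2 peaks scored as high or higher, so both were low.

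The Acadl promoter is shown because both peaks lie close to it. It covers the 250 bases before the RefSeq start of Acadl (GRCm38.p6, chromosome 1, 66863310 to 66863559, minus strand), is printed in the direction of transcription, and has CG dinucleotides in capitals.
Acadl: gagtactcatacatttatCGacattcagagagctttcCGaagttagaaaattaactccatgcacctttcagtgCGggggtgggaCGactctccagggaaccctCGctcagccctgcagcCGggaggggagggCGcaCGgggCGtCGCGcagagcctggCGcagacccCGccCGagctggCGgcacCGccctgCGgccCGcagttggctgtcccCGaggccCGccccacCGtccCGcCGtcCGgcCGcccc
The stretch holds 25 CG dinucleotides and 68% G or C, against a median of 6 and 52.4% over the 32851 RefSeq promoter windows of the same length; 10.7% of those hold as many CG dinucleotides. CG-rich promoters of this kind are typical of genes active in many tissues. The FOXA words TGTTTAC and TATTTAC and TGTTTGC, searched on both strands, were not found in it; 3.17%, 2.73% and 4.3% of all windows hold them. The HNF4A word CAAAGTCCA and the nuclear receptor half-site AGGTCA were not found either, and occur in 0.384% and 14% of windows. This says only that these letters are not in these 250 bases. By the approximate mm9 gene bounds neither peak reached into them. A shift of the start by 0.7 kb, the difference between the builds given above, could place the HNF4A peak or the FOXA2 peak over them, depending on its direction. Cps1 had no entry among the promoter sequences used.

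Before Cps1 no peak had an outstanding score, and all lay within 50 kb of the start. The site nearest upstream of the start was bound by both factors. The HNF4A peak at chr1:67163099-67163639 (score 26, rank 4533) enclosed the FOXA2 peak at chr1:67163170-67163509 (score 25, rank 1735), with centres 29.5 bp apart. Together they lay from about 5961 to 6501 bp upstream of the Cps1 start. A FOXA2 peak without HNF4A lay beside this site at chr1:67159935-67160250, about 9.5 kb upstream, with a score of 29 (rank 1267). It was separated by 2848 bp from the HNF4A peak of the pair.

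The other pair lay about 45 kb upstream of Cps1. There the FOXA2 peak at chr1:67124309-67124699 had a score of 34 (rank 887), which is at the 90th percentile of its list. The HNF4A peak at chr1:67123982-67124685 was 704 bp wide and weak, with a score of 17 (rank 9551), and 89.9% of its list scored as high or higher. They had 377 bp in common, but their centres were 170.5 bp apart, since the FOXA2 peak sat at 1 end of the wider HNF4A peak. Between the pairs came FOXA2 alone at chr1:67139099-67139383, about 30.4 kb upstream (score 22, rank 2187), and HNF4A alone at chr1:67150570-67150950, about 18.8 kb upstream (score 31, rank 3195). The peak inside Cps1, at chr1:67170328-67170769, was HNF4A alone with a score of 17 (rank 9551), from about 728 to 1169 bp after the start. No FOXA2 peak was listed closer to the Cps1 start than the one at about 6.3 kb.

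**Figure D2:**
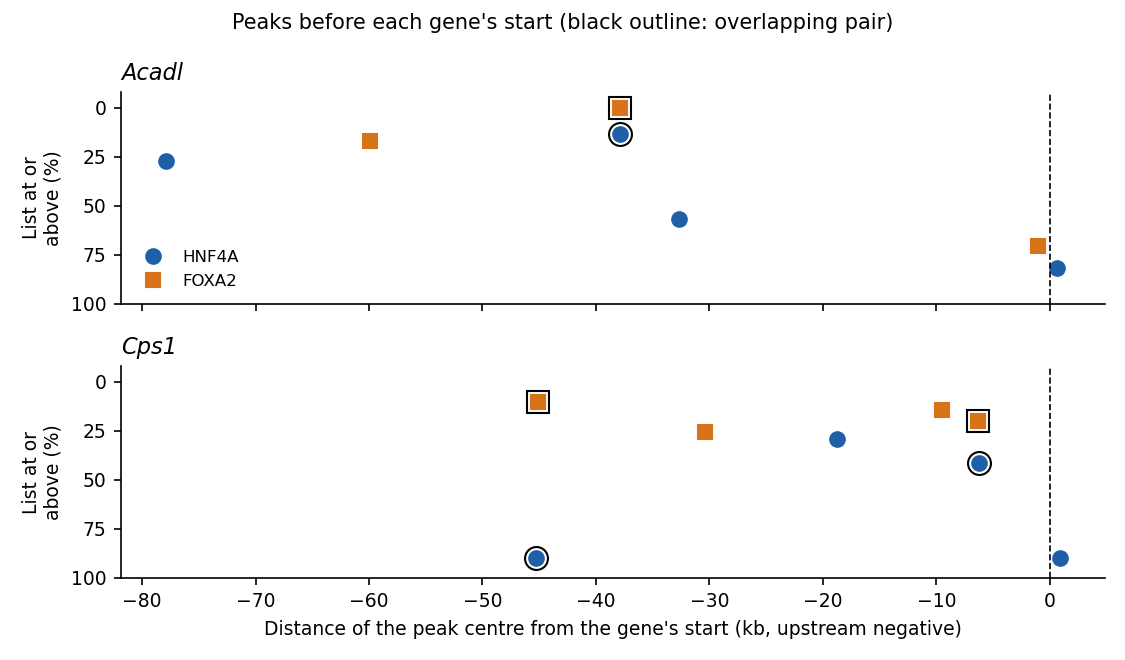
Share of its list that scores as high or higher (vertical axis in %, strong peaks at the top), for HNF4A (circles) and FOXA2 (squares). The horizontal axis is distance of the peak centre in kb from the start of Acadl or Cps1, whichever was nearer. Overlapping pairs are outlined in black. The 8 peaks given to Cps1 lie within 50 kb of its start. Those given to Acadl reach 77.9 kb upstream and include the highest FOXA2 peak.

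Side by side, the genes had like numbers of peaks in a different layout. Each peak was given to Acadl or Cps1, whichever body was nearer. Myl1 and Lancl1 were left out of this assignment, so a peak given to Acadl or Cps1 may lie nearer to another gene. Acadl received 4 HNF4A peaks, with scores of 18, 22, 43 and 32, and 3 FOXA2 peaks, with scores of 13, 165 and 27. Cps1 received 4 HNF4A peaks, with scores of 17, 31, 26 and 17, and 4 FOXA2 peaks, with scores of 34, 22, 29 and 25. The median HNF4A score was 27 for Acadl and 21.5 for Cps1, and the ranges overlapped. The median FOXA2 score was 27 for both. Both Acadl medians include the site that chose the window (HNF4A 43, FOXA2 165). Without it the HNF4A scores of Acadl were 18, 22 and 32, the middle one close to the Cps1 median. Its FOXA2 scores were then 13 and 27, neither above the Cps1 median. Within 10 kb of the start lay 2 peaks of Acadl and 4 of Cps1, and within 50 kb 5 and 8. Of the 4, the FOXA2 peak of score 29 lay at about 9.5 kb, so a shift of the approximate start could put it outside 10 kb. Overlapping pairs numbered 1 for Acadl, at the site that chose the window, and 2 for Cps1. With so few peaks and no replicate library, none of these differences was tested.

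A minority of the peaks of each factor overlapped the other factor. The share was 3 of 8 for HNF4A (37.5%, exact 95% Clopper-Pearson interval 8.52 to 75.5%), against 24.4% of all HNF4A peaks. For FOXA2 it was 3 of 7 (42.9%, interval 9.9 to 81.6%), against 30.7% of all FOXA2 peaks. The intervals cover counting error only, take neighbouring peaks as independent and both rest on the same 3 overlaps. They are too wide to set the window apart from the lists or to show that it is like them. Without the site that chose the window the shares were 2 of 7 (28.6%) and 2 of 6 (33.3%). The median score of HNF4A peaks was 26 where FOXA2 overlapped and 22 elsewhere, but 21.5 and 22 without that site, so the order turned. For FOXA2 peaks it was 34 with an HNF4A overlap and 24.5 without, and 29.5 and 24.5 once the highest peak was left out. The scores of shared and single peaks overlapped: an HNF4A peak of score 17 was shared and one of 32 was not, and a FOXA2 peak of 25 was shared and one of 29 was not.

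FOXA2 stood higher in its list than HNF4A did at each of the 3 pairs. The shares scoring as high or higher were 0.0107% for FOXA2 against 13.5% for HNF4A before Acadl, 10.2% against 89.9% at the outer Cps1 pair and 19.9% against 41.6% at the inner one. Over all 2879 overlapping pairs the FOXA2 peak stood higher in 51.6%, so pairs of this kind are about as frequent as the opposite. The pair before Acadl was chosen for its FOXA2 score and adds nothing to this count.

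**Figure D3:**
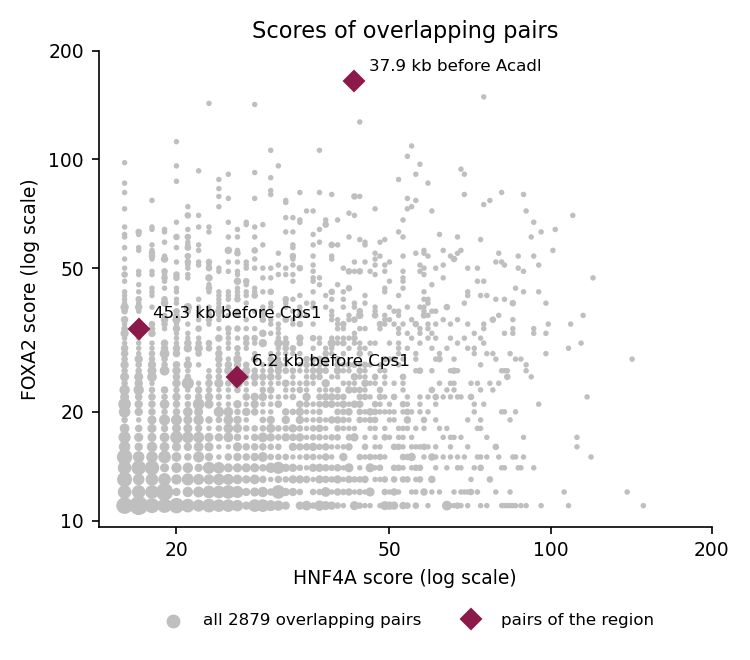
FOXA2 score against HNF4A score (log axes) for all 2879 overlapping pairs (grey, larger where several pairs coincide) and the 3 pairs of the window (diamonds). The pair before Acadl is at the top, at 165 and 43, while the pairs before Cps1, at 34 and 17 and at 25 and 26, lie among the bulk.

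HNF4A peaks of the window were of ordinary rank, while most FOXA2 peaks were in the upper part of their list. The HNF4A scores of 17 to 43 had a median of 24, against 23 for the whole list; 4 of 8 were at or above the list's median, as were 52.5% of all HNF4A peaks. None of the 8 reached the 90th percentile, which 10.6% of all did. The FOXA2 scores of 13 to 165 had a median of 27, against 15 for the list, and 6 of 7 were at or above the list's median, against 53.5% of all. At or above the 90th percentile, a score of 34, were 2 of 7, against 10.2% of all. Without the highest peak, which chose the window, the median was 26, 5 of 6 were at or above the list's median and 1 of 6 was at or above the 90th percentile. The exception was the FOXA2 peak beside the Acadl start.

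**Figure D4:**
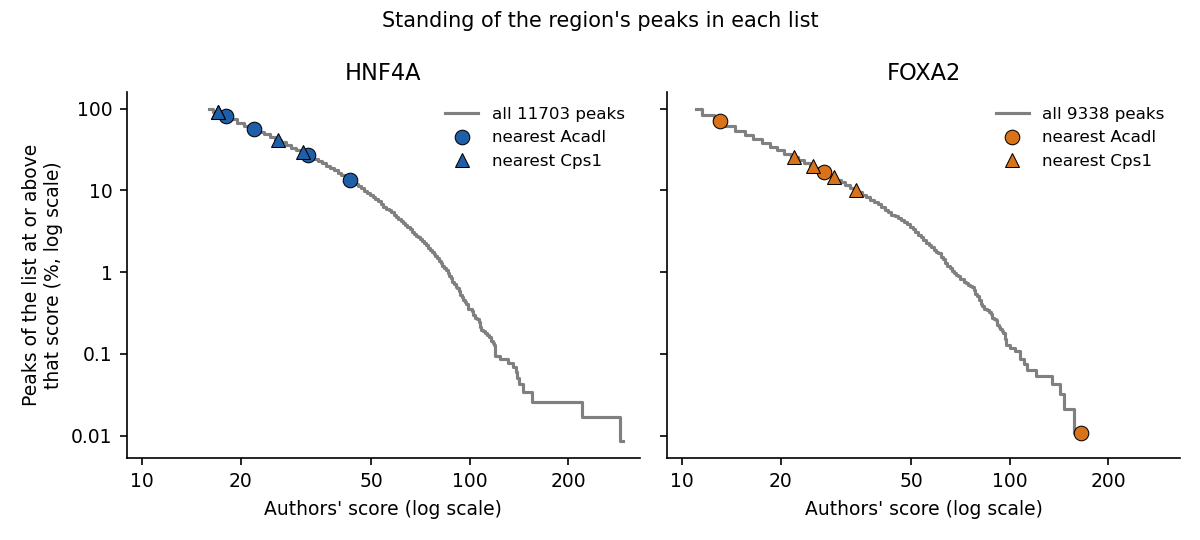
Share of each list at or above a score (vertical log axis, %) against the score (log axis). The window's peaks are marked by the nearer of Acadl and Cps1, and the 2 HNF4A peaks of score 17 coincide. HNF4A members reach 13.5% at best, and 5 of the 6 FOXA2 members other than the highest lie between 10.2% and 25.6%.

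Width set some HNF4A peaks apart, a feature picked after its values were seen. The median width of the 8 was 491.5 bp, against 430 bp for all HNF4A peaks. With a lower limit of 700 bp, just under the narrowest of them, 3 of the 8 were wide (746, 976 and 704 bp), against 7.27% of all HNF4A peaks. These were the peak at the Acadl start, the one 32.7 kb upstream of Acadl and the one of the outer Cps1 pair, and their scores were low to middling, at 18, 22 and 17. The highest site was narrow, with 353 bp for either factor. FOXA2 peaks were 285 to 410 bp wide, and their list has a median of 367 bp.

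The window was rich in peaks for its size. Peaks per Mb came to 17.8 for HNF4A and 15.6 for FOXA2, against 4.23 and 3.67 over the span of chromosome 1 that holds peaks. The nuclear genome was laid out in 5727 windows of the same width, from the first to the last peak of each chromosome. A median of 1 HNF4A and 1 FOXA2 peak was found per window. At least 8 HNF4A and 7 FOXA2 peaks were held by 100 of these windows, or 1.75%, this one included. Its bounds were drawn with the peaks in view, so these figures describe the window and were not tested.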

How the data were processed

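For each library the authors deposited a headerless list with chromosome, start, end and a whole-number score per region. Coordinates are mm9, a build named in the submitters' processing notes. The aligner, the peak calling with its threshold, and the scaling of the score were not given in the sources used here. No region was removed here. Positions were read as 1-based with both ends included.

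Members were the peaks whose centre lies within the window. The window, genes and lists were chosen with earlier results of these data known. Gene bounds in mm9 are approximate and written to about 100 bp, which does not bound their error. A peak was shared when it overlapped the other factor by at least 1 bp. Rank 1 is the highest score of the whole list, 3 mitochondrial HNF4A peaks included, and ties share a rank. All peaks of the window are named. Overlap was checked on simulated peaks, and distance to a gene at hand-set positions of a made-up gene. The choice of the nearer gene was not checked in this way. Promoter sequence comes from RefSeq, and 1 of the 2 genes was matched. Computation used Python 3.11.15 with numpy 2.4.6, with pandas 2.3.3 and with scipy 1.17.1, and plots used matplotlib 3.10.9.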

Additional observations from a re-analysis of the deposited data

How the results depend on the processing

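Of 70 recomputed counts and medians, 63 stayed within 1.5 times the reported value. They cover other score thresholds, bounds moved by 50 kb either way, 3 other definitions of a shared peak, other assignments to genes, leaving out peaks within 10 kb of input and, chosen after seeing the data, leaving out the site of the highest FOXA2 peak. No member had the lowest score of its list, none lay within 10 kb of input, and bounds moved by 50 kb gained or lost no peak. Those settings could therefore not change a value. A fall from 3 to 2 also counted as staying within 1.5 times. The count of 63 is thus no measure of robustness. With only peaks at or above the median score of their list, 4 of 8 HNF4A peaks were left, 2 nearest Acadl and 2 nearest Cps1, and 6 of 7 FOXA2 peaks. Within the gene bodies only, by their approximate bounds, each gene had 1 HNF4A peak and 0 FOXA2 peaks. When centres had to be at most 100 bp apart, 2 of the 3 pairs were still shared. No paired analysis was possible because each group had 1 library. The unknown depth and score limit what a missing peak or a score difference can show.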
